A study of Mus musculus with 12 samples.

Results

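Expression of 9 genes of early B cell development and antigen receptor gene recombination was followed across sorted mouse B lymphoma cells. The genes were chosen by name (Rag1, Rag2, Dntt, Igll1, Vpreb1, Il7r, Myb, Sox4 and Cd93), and each is read by its brightest probe set among those that the platform annotation assigns to exactly 1 gene symbol. Under that rule 8 of the 9 genes had a probe set and 7 also passed the filter on dim signals, out of 12961 genes tested. Rag1 was not analysed here, because its probe set carries a further gene symbol. Rag2 has another probe set with 2 symbols, which was left out by the same rule, so Rag2 is read by 1 probe set. Dntt did not exceed the 40th percentile on any of the 12 arrays and was not tested.

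The cells are primary cultures of B lymphomas from l-MYC;B1-8f mice of the C57BL/6J x BALB/c background, 3 tumours numbered 2567, 2646 and 2676, so every group carries the MYC transgene. The B cell receptor (BCR) of these cells is built on a B1-8 heavy chain that can be deleted by Cre, and deletion was induced in culture with the cell-permeable TAT-Cre protein. Each tumour gave 1 array in each of 4 groups, all sorted from mixed cultures after 4 days. The groups were BCR-negative cells grown with CHIR99021 (which blocks GSK3, a kinase restrained by BCR and growth factor signals), BCR-independent cells, untreated BCR-negative cells and untreated BCR-positive cells. The BCR-independent cells of a tumour are 1 clone (clone 8 of tumour 2567, clone 7 of 2646 and clone 1 of 2676) that arose after prolonged culture of BCR-negative cells and was co-cultured with that tumour's BCR-positive cells. The labels name no vehicle control, so treatment and culture cannot be told apart. An unexplained (2) ends the titles of 4 arrays, the untreated BCR-negative and untreated BCR-positive ones of tumours 2646 and 2676. Where this title mark is added as a term below, the offset of treated cells and clones from untreated cells rests on tumour 2567 alone. Such values are therefore not an adjusted estimate over the 3 tumours.

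A B cell assembles its receptor genes in steps. In pro-B cells, which depend on interleukin-7, the RAG1 and RAG2 recombinase cuts the heavy chain locus and terminal transferase (Dntt) adds bases at the joins. A finished heavy chain is then tested in the pre-BCR, where the surrogate light chain proteins encoded by Vpreb1 and Igll1 stand in for a light chain. Myb and Sox4 are transcription factors needed in early B cell progenitors, and Cd93 is a surface receptor (the AA4.1 antigen) that marks immature B cells in mice. Mature B cells have normally shut off most of these genes, and RAG can be switched on again in cells that lose their receptor.

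Values are deposited log2 signals, so a difference of 1 is a 2-fold change. Array medians lay between 3.32 and 3.44 and 40th percentiles between 3.06 and 3.16. Differences were fitted by limma with group and tumour as terms over all 12 arrays, and called means a Benjamini-Hochberg adjusted p under 0.05. The SE of a gene is therefore pooled over the 4 groups and is the same in every comparison. The number of arrays limits the precision. Ighv1-72, which encodes the variable part of the deleted heavy chain, read 4.93 to 6.26 in CHIR99021-treated BCR-negative, 3.72 to 4.21 in BCR-independent, 5.85 to 6.97 in BCR-negative and 9.45 to 9.97 in BCR-positive cells, so every BCR-positive array lay above every other. Close copies of this segment exist in the locus, and its own share of the signal is uncertain. Among markers of B cells, Cd79a lay between 9.48 and 10.75 and Cd79b between 8.84 and 9.92 on all arrays, while the probe set of Ms4a1 did not pass the filter. In treated against untreated BCR-negative cells 5 of the 6 tested defining B cell markers had a negative difference (43.3% of all genes), with a median of -0.39. Among these 5, Blnk was unchanged at -0.00022. The remaining marker, Cd79a, was at 0.04. Cd79b (-0.42), Pax5 (-0.46) and Ebf1 (-1.21) had an unadjusted p under 0.05 without being called. The part of these marker differences in the members' differences was not tested. In bulk samples such as these, fewer cells that express a gene and less RNA per cell cannot be told apart.

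Of the 9 genes, 8 had a promoter in the RefSeq tables of GRCm38.p6. Igll1 and Vpreb1 are neighbours on chromosome 16 with 4415 bases between them, and Rag1 and Rag2 on chromosome 2 with 5723 bases between them. The 250 bases before the start are shown for Igll1 and Vpreb1, which were high on the same arrays, for Rag2, which had the widest treated-to-untreated difference, and for Myb, the member called by the fit. Capitals mark matches, on either strand, to the EBF1 core CCCNNGGG, the E2A motif CAGGTG, the FOXO motif TGTTTAC, the Ikaros motif TGGGAA, the RUNX motif TGTGGT or the MYB motif AACTG.
Igll1, chr16:16863986-16864235, minus strand: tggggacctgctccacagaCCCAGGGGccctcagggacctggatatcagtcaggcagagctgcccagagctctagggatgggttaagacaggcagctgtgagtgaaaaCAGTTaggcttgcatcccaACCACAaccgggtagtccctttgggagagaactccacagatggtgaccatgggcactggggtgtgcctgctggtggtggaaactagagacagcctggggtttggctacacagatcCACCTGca
Vpreb1, chr16:16869256-16869505, minus strand: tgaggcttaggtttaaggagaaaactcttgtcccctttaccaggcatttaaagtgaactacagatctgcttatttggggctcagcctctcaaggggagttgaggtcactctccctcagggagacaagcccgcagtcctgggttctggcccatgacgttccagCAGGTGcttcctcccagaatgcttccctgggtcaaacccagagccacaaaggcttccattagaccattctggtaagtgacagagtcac
Rag2, chr2:101624462-101624711, plus strand: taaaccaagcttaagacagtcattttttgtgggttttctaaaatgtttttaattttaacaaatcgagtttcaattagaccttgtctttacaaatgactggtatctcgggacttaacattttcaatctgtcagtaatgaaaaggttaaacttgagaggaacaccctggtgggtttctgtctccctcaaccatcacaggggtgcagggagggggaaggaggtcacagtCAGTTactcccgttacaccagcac
Myb, chr10:21160985-21161234, minus strand: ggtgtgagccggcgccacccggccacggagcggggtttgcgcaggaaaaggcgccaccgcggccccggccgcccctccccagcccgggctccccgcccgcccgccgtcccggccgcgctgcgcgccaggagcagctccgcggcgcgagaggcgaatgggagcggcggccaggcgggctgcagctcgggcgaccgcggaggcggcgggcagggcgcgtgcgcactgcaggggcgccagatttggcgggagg
The E2A motif was found in 3 of the 8 promoters (Rag1, Igll1 and Vpreb1), against 17.2% of 32851 RefSeq promoters of this length. The EBF1 core was found in Igll1 alone among the 8 (11.8% of all promoters), and the FOXO motif in 0 of 8 (3.17% of all). MYB motif matches occurred in 3 (Rag2, Igll1 and Il7r, 39.1% of all), and Ikaros (Rag1 and Sox4, 21.6% of all) and RUNX matches (Rag1 and Igll1, 14% of all) in 2 each. The Myb promoter held 0 matches to any motif and was 81.2% G and C, against a median of 52.4% over all promoters. These are descriptions of letters in 1 window. No overlap between matches was found within the 4 printed windows.

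Rag2, the partner without which RAG1 does not cut DNA, was dim in treated cells. It read 2.66, 4.23 and 3.20 in CHIR99021-treated BCR-negative cells of tumours 2567, 2646 and 2676, against 4.54, 7.07 and 4.55 in untreated BCR-negative cells. The groups did not overlap, and the treated array of tumour 2567 was below its 40th percentile. The difference was -1.88, -2.84 and -1.36 in the 3 tumours and -2.03 in the fit (SE 0.53, 95% interval -3.21 to -0.84), which missed the threshold (limma adjusted p = 0.0946). With values under the 40th percentile set at it, the difference was -1.88 (adjusted p = 0.119). It was called in 2 of 14 alternatives, with these 2 groups alone (adjusted p = 0.0472) and with array weights (adjusted p = 0.0106), while the others gave adjusted p between 0.074 and 0.612, the highest without the tumour block.

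Rag2 read 5.36, 6.65 and 3.44 in BCR-independent and 4.43, 4.42 and 3.97 in BCR-positive cells. Untreated BCR-negative cells were thus above BCR-positive cells of the same tumour by 0.11, 2.65 and 0.58, with groups that did not overlap. The fitted difference of 1.11 (SE 0.53, limma adjusted p = 0.999) shrank to 0.34 without tumour 2646, whose BCR-negative array was the brightest of the 12 for Rag2. BCR-independent clones had no common direction against BCR-negative cells, at 0.83, -0.42 and -1.12. Against BCR-positive cells they were at 0.94, 2.23 and -0.54, for a fitted 0.88 that was 0.20 without tumour 2646 and 1.58 without tumour 2676. Treated minus clone values were -2.71, -2.42 and -0.24 (fitted -1.79, SE 0.53, limma adjusted p = 0.223) and treated minus BCR-positive values -1.77, -0.19 and -0.78 (fitted -0.91, adjusted p = 0.457, -0.48 without tumour 2567).

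Dntt, the template-independent polymerase of junctional diversity, stayed between 2.58 and 2.96 on the 12 arrays, below every array's 40th percentile. The group means were 2.68 ± 0.09 in treated BCR-negative, 2.80 ± 0.15 in BCR-independent, 2.70 ± 0.05 in BCR-negative and 2.62 ± 0.04 in BCR-positive cells (SD, n = 3). No direction was drawn from values this dim.

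**Figure D1:**
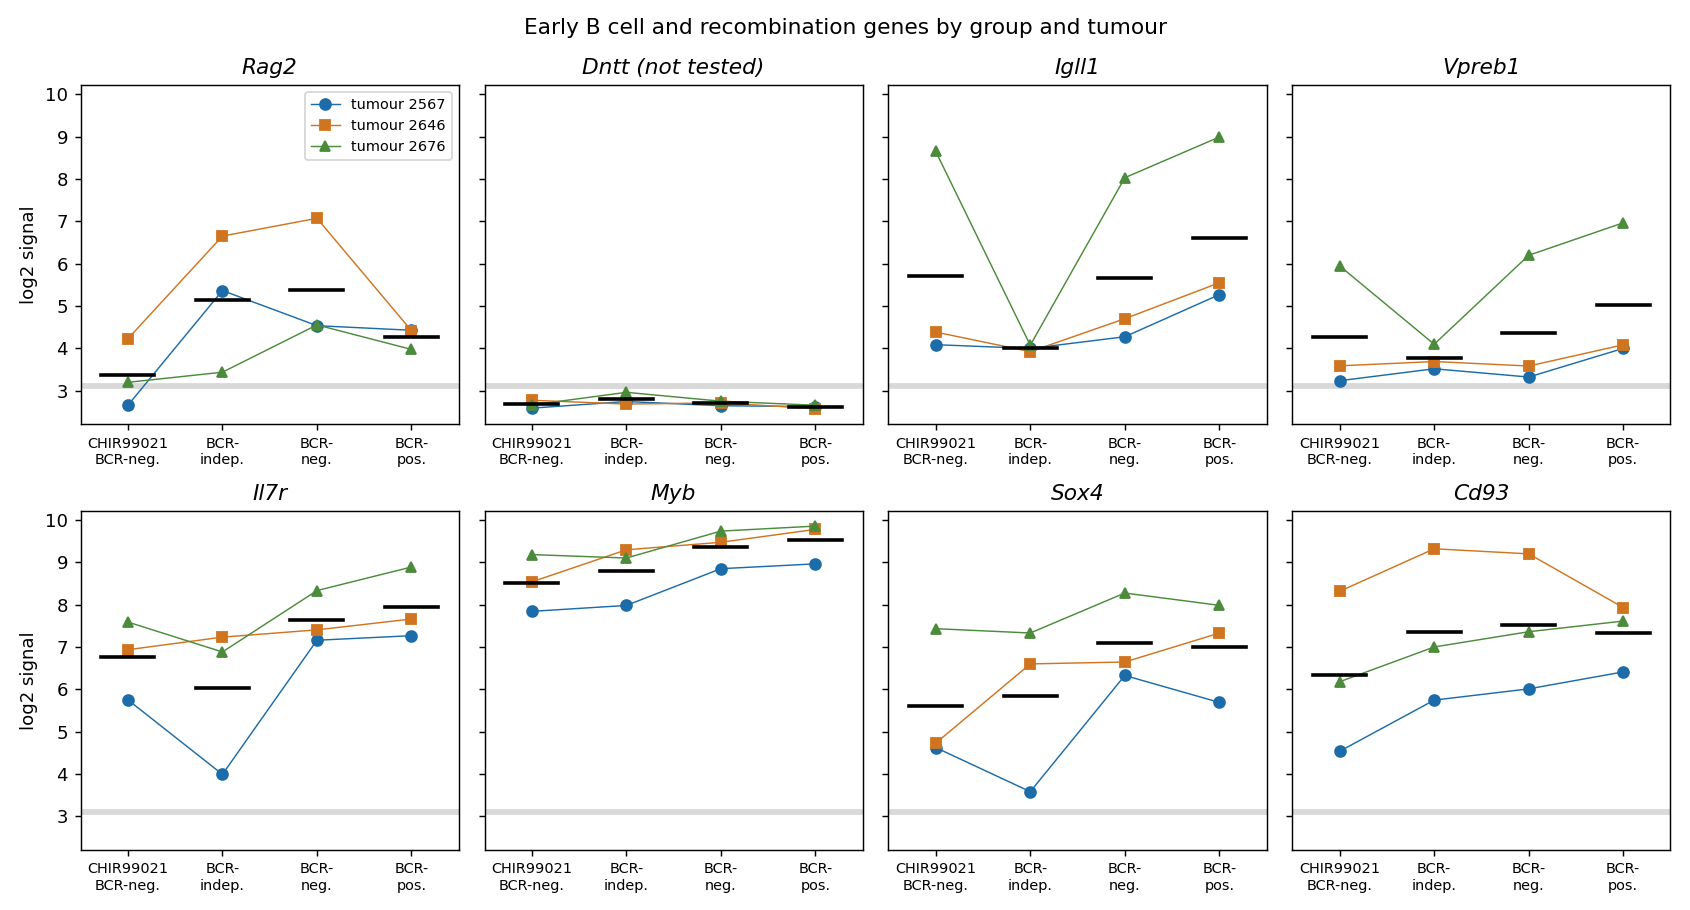
The log2 signal of the 8 genes with a probe set (y axis) is plotted in each group (x axis) for tumours 2567, 2646 and 2676, with thin lines joining arrays of a tumour, black bars for group means (n = 3) and a grey band for the range of the arrays' 40th percentiles (3.06 to 3.16). Igll1 and Vpreb1 stand high in tumour 2676 in all groups but the BCR-independent clone, and Dntt lies under the band throughout.

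The surrogate light chain genes were bright in 1 tumour. Igll1 (lambda 5) read 8.65 in treated, 8.03 in untreated BCR-negative and 8.99 in BCR-positive cells of tumour 2676, and between 4.09 and 5.55 in the same groups of tumours 2567 and 2646. The BCR-independent clones lay together at 4.00, 3.92 and 4.07. The clone of tumour 2676 thus differed by -3.96 from BCR-negative and by -4.92 from BCR-positive cells of its own tumour.

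In tumours 2567 and 2646 the Igll1 differences of the clones were smaller, at -0.28 and -0.78 against BCR-negative and -1.27 and -1.63 against BCR-positive cells. All clone arrays were below all arrays of both untreated groups. The fitted difference was -1.67 (SE 0.72, 95% interval -3.30 to -0.04, limma adjusted p = 0.814) against BCR-negative cells and -2.60 (SE 0.72, interval -4.23 to -0.98, adjusted p = 0.313) against BCR-positive cells, and neither was called. Without tumour 2676 they were -0.53 and -1.45.

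BCR-negative cells had less Igll1 signal than BCR-positive cells in each tumour, by similar amounts, -0.99, -0.85 and -0.96 (fitted -0.93, SE 0.72, limma adjusted p = 0.999). Treated cells differed from untreated BCR-negative cells by -0.19, -0.32 and 0.62. The fitted 0.04 had an interval from -1.59 to 1.67, wide enough to hold a 2-fold change in both directions, and its sign turned without tumour 2676 (-0.25) and with array weights (-0.09). Treated cells were above the clones by 0.09, 0.46 and 4.58, without overlap (fitted 1.71, adjusted p = 0.384, 0.28 without tumour 2676). The margin was narrow, with the lowest treated array at 4.09 and the highest clone array at 4.07. Against BCR-positive cells the treated cells were at -1.18, -1.16 and -0.34 (fitted -0.90, adjusted p = 0.63, -0.34 with the title mark).

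Vpreb1, the other surrogate light chain gene, was also high in tumour 2676 outside the clone, with 5.95 in treated BCR-negative, 4.10 in BCR-independent, 6.20 in BCR-negative and 6.96 in BCR-positive cells. In tumours 2567 and 2646 it read 3.24 and 3.59 in treated, 3.52 and 3.69 in BCR-independent, 3.32 and 3.58 in BCR-negative and 4.00 and 4.08 in BCR-positive cells. BCR-negative cells were below BCR-positive cells in each tumour, at -0.68, -0.50 and -0.77 (fitted -0.65, SE 0.43, limma adjusted p = 0.999). Here too the SE is that of all 4 groups and not of these 3 differences. The clones were below BCR-positive cells in each tumour too, at -0.48, -0.39 and -2.87 (fitted -1.25, SE 0.43, limma adjusted p = 0.428, -0.44 without tumour 2676).

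Against BCR-negative cells the clone difference of Vpreb1 (0.20, 0.11 and -2.10, fitted -0.60) was 0.15 without tumour 2676 and so turned sign. Treated cells were at -0.09, 0.0040 and -0.25 against untreated BCR-negative cells (fitted -0.11, interval -1.08 to 0.86). Against BCR-positive cells they were at -0.76, -0.50 and -1.02 (fitted -0.76, adjusted p = 0.45, -0.36 with the title mark). Mouse Vpreb1 has a near-identical copy, Vpreb2, so how the signal divides between them is uncertain. The Vpreb2 probe set itself differed by -0.23 (SE 0.14, adjusted p = 0.828) between the clones and BCR-negative cells.

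**Figure D2:**
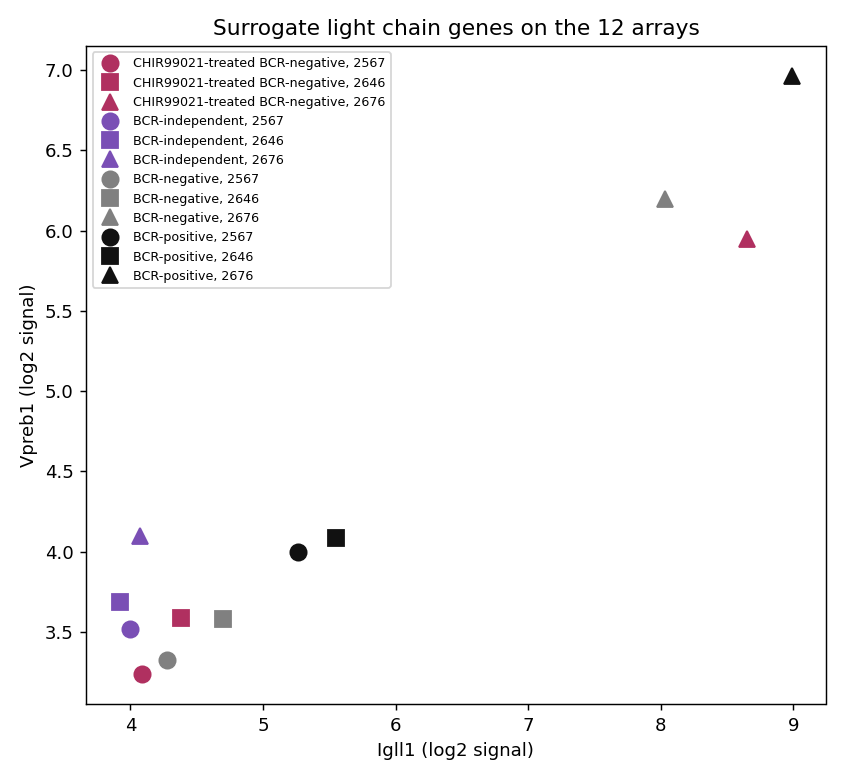
Each of the 12 arrays is a point, with the Igll1 log2 signal on the x axis and the Vpreb1 log2 signal on the y axis, colour for the group and marker shape for the tumour. The 3 arrays at the upper right, with Igll1 at 8.03 to 8.99, are the treated BCR-negative, BCR-negative and BCR-positive cells of tumour 2676, and the BCR-independent clone of that tumour lies with the other tumours at 4.07.

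Il7r, the alpha chain of the interleukin-7 receptor, read 5.75, 6.94 and 7.59 in treated cells, 3.99, 7.23 and 6.88 in BCR-independent clones, 7.16, 7.41 and 8.33 in BCR-negative cells and 7.27, 7.66 and 8.89 in BCR-positive cells. The clone of tumour 2567 was the dimmest array and that of tumour 2646 was close to its untreated counterparts. The clones were below BCR-negative cells, at -3.17, -0.17 and -1.45 (fitted -1.60, SE 0.46, limma adjusted p = 0.781, -0.81 without tumour 2567 and -2.55 with the title mark). Against BCR-positive cells the 3 clone arrays did not overlap, at -3.27, -0.43 and -2.01 (fitted -1.90, SE 0.46, interval -2.93 to -0.87, adjusted p = 0.292, -1.22 without tumour 2567 and -2.86 with the title mark). The margin was narrow, with the highest clone array at 7.23 and the lowest BCR-positive array at 7.27.

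Treated cells had less Il7r signal than untreated BCR-negative cells in each tumour, at -1.41, -0.47 and -0.74 (fitted -0.87, SE 0.46, limma adjusted p = 0.389), and less than BCR-positive cells, at -1.52, -0.73 and -1.30 (fitted -1.18, adjusted p = 0.253). With the title mark as a term, these became -1.83 and -2.13. BCR-negative cells were near BCR-positive cells, at -0.11, -0.26 and -0.56 (fitted -0.31, interval -1.34 to 0.72). Treated cells and clones had no common order, at 1.76, -0.30 and 0.71.

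Myb was the 1 member called, and it fell in treated cells. This transcription factor read 7.84, 8.54 and 9.18 in CHIR99021-treated BCR-negative cells, against 8.85, 9.47 and 9.74 in untreated BCR-negative cells and 8.96, 9.78 and 9.85 in BCR-positive cells. Each treated array was below both untreated arrays of its tumour, while the groups overlapped across tumours. The change was -1.01, -0.93 and -0.55 against BCR-negative cells (fitted -0.83, SE 0.15, interval -1.18 to -0.49, 1.78-fold, limma adjusted p = 0.0375). Against BCR-positive cells it was -1.12, -1.24 and -0.67 (fitted -1.01, SE 0.15, interval -1.36 to -0.67, 2.02-fold, adjusted p = 0.0325).

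Both calls of Myb were lost without tumour 2567, 2646 or 2676, at adjusted p between 0.142 and 0.342 against BCR-negative cells and between 0.116 and 0.237 against BCR-positive cells, with changes of -0.97 to -0.74 and -1.18 to -0.90. They were also lost without the tumour block, with only the 2 groups compared (adjusted p = 0.0506 and adjusted p = 0.15) and once the title mark was added (adjusted p = 0.0948 and adjusted p = 0.0962), leaving each call in 8 of 14 alternatives.

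In BCR-independent clones Myb read 7.98, 9.30 and 9.10, between treated and untreated cells in tumours 2567 and 2646. The clones were below BCR-negative cells, at -0.87, -0.18 and -0.64 (fitted -0.56, SE 0.15, limma adjusted p = 0.717) and below BCR-positive cells, at -0.98, -0.48 and -0.75 (fitted -0.74, SE 0.15, interval -1.08 to -0.39, adjusted p = 0.215). BCR-negative minus BCR-positive values were -0.11, -0.30 and -0.12 (fitted -0.18, SE 0.15, adjusted p = 0.999). The step between treated cells and clones was -0.14, -0.76 and 0.08.

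Sox4, an SRY-related factor of progenitor cells, read 4.63, 4.73 and 7.43 in treated cells, 3.58, 6.60 and 7.33 in BCR-independent clones, 6.33, 6.65 and 8.27 in BCR-negative cells and 5.69, 7.33 and 7.98 in BCR-positive cells. Treated arrays were the lower of each tumour's pair with BCR-negative cells, at -1.70, -1.92 and -0.84 (fitted -1.49, SE 0.49, interval -2.59 to -0.38, limma adjusted p = 0.162). This was called in 1 of 14 alternatives, with array weights (adjusted p = 0.0311), and had adjusted p between 0.0506 and 0.877 in the others. Against BCR-positive cells they were at -1.07, -2.60 and -0.55 (fitted -1.41, adjusted p = 0.207, -0.81 without tumour 2646). The clones were at -2.74, -0.05 and -0.94 against BCR-negative cells (fitted -1.24, SE 0.49, adjusted p = 0.814, -0.49 without tumour 2567) and at -2.11, -0.73 and -0.65 against BCR-positive cells (fitted -1.16, adjusted p = 0.496, -0.69 without tumour 2567). BCR-negative and BCR-positive cells differed in no common direction, at 0.64, -0.68 and 0.29.

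Cd93 separated the tumours more than the groups. It read 4.54, 8.32 and 6.18 in treated cells, 5.75, 9.32 and 7.00 in BCR-independent clones, 6.01, 9.20 and 7.36 in BCR-negative cells and 6.41, 7.93 and 7.61 in BCR-positive cells. Treated cells were the lowest but for tumour 2646, where BCR-positive cells were lower. The treated arrays were below BCR-negative cells, at -1.47, -0.88 and -1.18 (fitted -1.18, SE 0.38, interval -2.02 to -0.34, limma adjusted p = 0.149) and below the clones, at -1.21, -1.003 and -0.82 (fitted -1.01, SE 0.38, adjusted p = 0.329).

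Against BCR-positive cells the treated difference of Cd93 was -1.87, 0.38 and -1.43 (fitted -0.97, adjusted p = 0.249), with -1.65 and a call without tumour 2646 (adjusted p = 0.0436) but -0.52 without tumour 2567 (adjusted p = 0.666). The difference of treated from untreated BCR-negative cells was called in 2 of 14 alternatives, with only the 2 groups compared (adjusted p = 0.0366) and with array weights (adjusted p = 0.0271), and had adjusted p between 0.114 and 0.944 in the others. The clones were within -0.27, 0.12 and -0.36 of BCR-negative cells (fitted -0.17, interval -1.01 to 0.67), and the fitted value was -0.31 without tumour 2646, -0.07 without tumour 2676 and -0.67 with the title mark. In tumour 2646 alone, Cd93 was higher in the clone than in BCR-positive cells (1.39) and higher in BCR-negative than in BCR-positive cells (1.27), the tumour in which Rag2 also differed most between BCR-negative and BCR-positive cells.

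Tumour took a larger share of the variance than group for 6 of the 7 tested members. It held 80.2% of the sum of squares for Cd93, 71.9% for Vpreb1, 62.6% for Sox4, 55.8% for Igll1, 52.7% for Myb and 43.4% for Il7r, against a median of 39.8% over all genes tested. The median share of group over all genes was 20.7%, so the medians of all genes had the same order as these 6 members. Rag2 was the exception, with 37.8% between tumours and 41.3% between groups. Tumour 2676 had the highest 4-array mean for Igll1 (7.43), Vpreb1 (5.80), Il7r (7.92), Myb (9.47) and Sox4 (7.76), and tumour 2646 for Rag2 (5.59) and Cd93 (8.69). Tumour 2567 had the lowest mean for 6 of the 7, with Rag2 lowest in tumour 2676 (3.79).

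**Figure D3:**
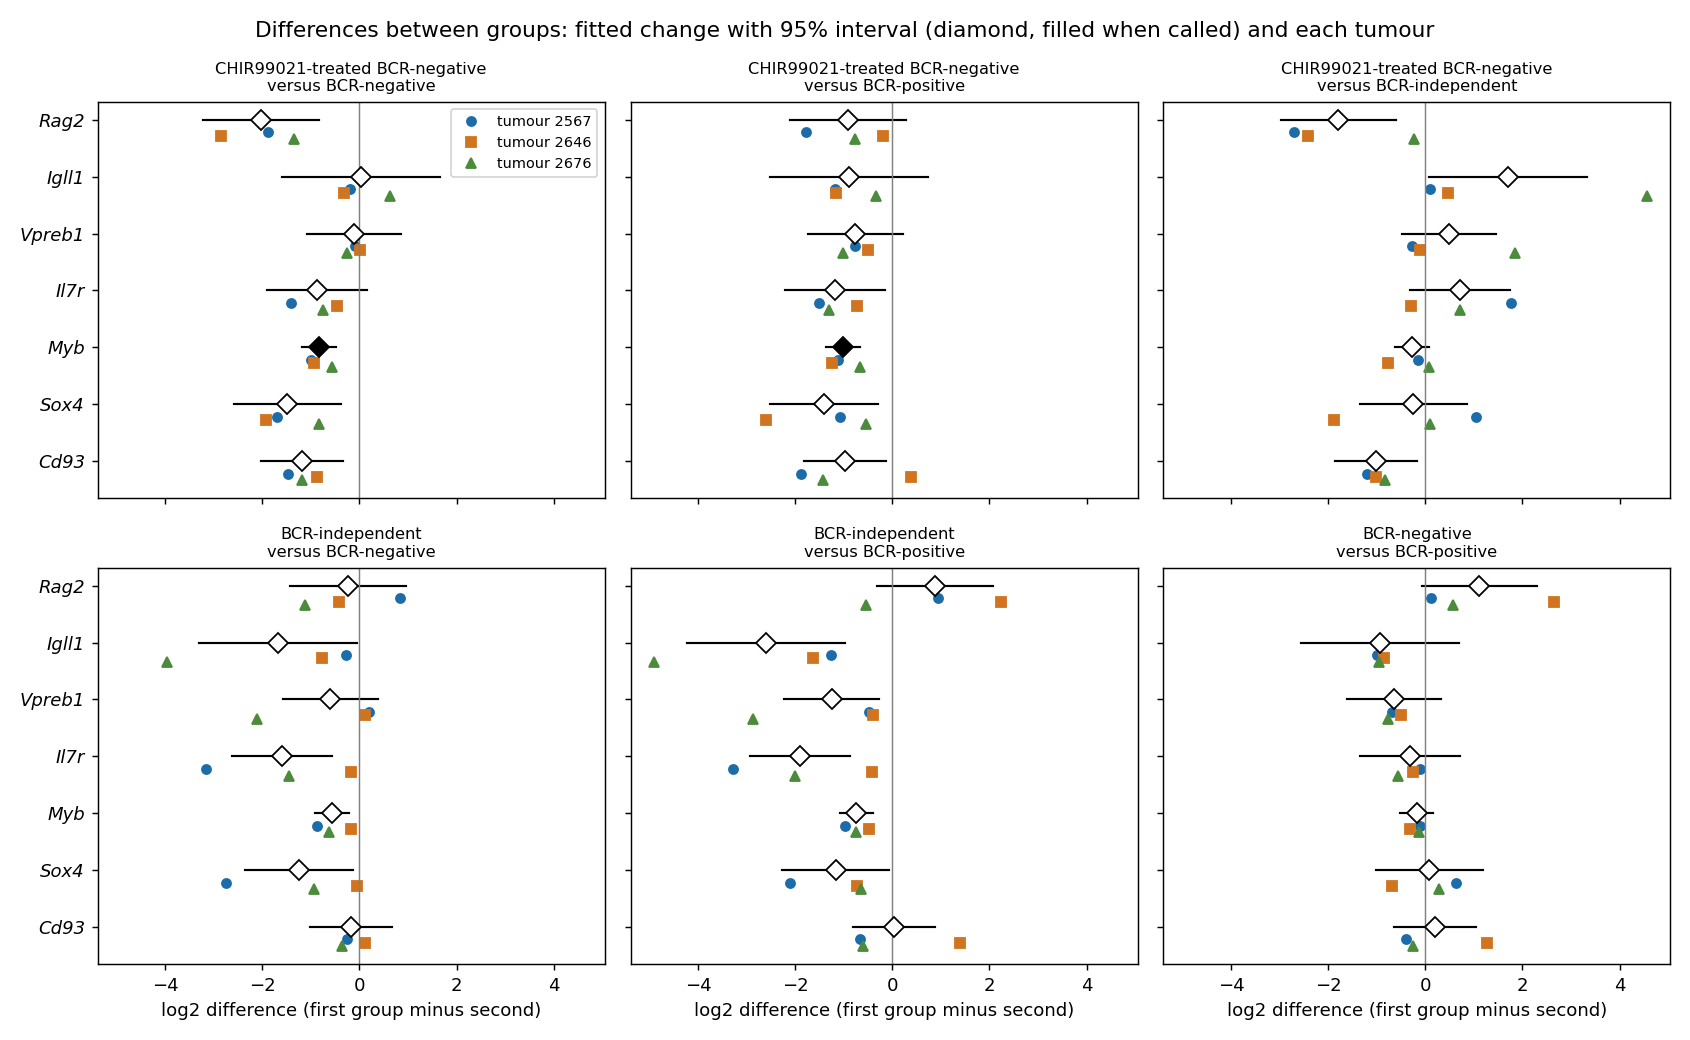
For each pair of groups, the log2 difference (x axis, first group minus second) of the 7 tested members is drawn as a diamond with its 95% interval, filled where called, and as 1 coloured marker for each tumour. The filled diamonds are those of Myb in treated BCR-negative cells against BCR-negative (-0.83) and BCR-positive (-1.01) cells.

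Counted over the 7 tested members, CHIR99021-treated cells were lower than untreated BCR-negative cells in 3 of 3 tumours for 5 (Rag2, Il7r, Myb, Sox4 and Cd93), where 15.8% of all genes were. Myb was called, where 1.91% of all genes were (0.849% lower), 4 members were lower at an unadjusted p under 0.05 (6.2% of all genes), and 1 member (Rag2) had treated arrays all below the untreated ones, against 4.68% of all genes. The median change of the 7 was -0.87 (-1.68 with the title mark as a term), and that of all genes 0.03. The fitted differences of Igll1 and Vpreb1 were 0.04 and -0.11.

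Against BCR-positive cells, treated cells were lower in 3 of 3 tumours for 6 of the 7 (13.3% of all genes), Myb was called (0.802% of all genes, 0.447% lower), 4 were lower at an unadjusted p under 0.05 (6.11% of all genes) and 0 had groups that did not overlap, with a median of -0.97 beside 0.03 over all genes. Both of these counts share the treated arrays.

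BCR-independent clones were lower than BCR-negative cells in 3 of 3 tumours for 4 members (Igll1, Il7r, Myb and Sox4, 10.3% of all genes) and 0 were called by limma (0.00772% of all genes), with 4 members at an unadjusted p under 0.05 (2.38% of all genes, lower). The median was -0.60 (-0.95 without tumour 2646), beside 0.02 over all genes. Groups did not overlap for Igll1 (1.55% of all genes, lower). Against BCR-positive cells 5 members were lower in 3 of 3 tumours (10.9% of all genes), 2 without overlap (Igll1 and Il7r, 2.56% of all genes) and 0 called (0.0849% of all genes), 5 being at an unadjusted p under 0.05 (4.24% of all genes, lower). The median was -1.16, and -0.69 and -0.73 without tumours 2567 and 2676. These comparisons share the clone arrays.

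Between BCR-negative and BCR-positive cells 4 members were lower in 3 of 3 tumours (Igll1, Vpreb1, Il7r and Myb, 12% of all genes) and Rag2 was higher (12.4% of all genes), its groups not overlapping (2.5% of all genes, higher). 0 members were called by limma (0.00772% of all genes), and 0 had an unadjusted p under 0.05 (3.19% of all genes). The median was -0.18 (-0.33 without tumour 2646), beside -0.00093 over all genes. Between treated cells and clones, Rag2 and Cd93 were lower in treated cells in 3 of 3 tumours (16.5% of all genes), and Igll1 was higher (19.4% of all genes) with groups that did not overlap (4.27% of all genes, higher). 0 members were called (0.162% of all genes) and, at an unadjusted p under 0.05, Rag2 and Cd93 were lower (5.26% of all genes) and Igll1 higher (7.05% of all genes). The median of -0.24 turned to 0.57 without tumour 2646 and was -0.42 without tumour 2676.

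Of 16 regulators of the recombinase and pre-BCR genes, 15 were tested, and in treated against untreated BCR-negative cells 2 were called lower and 0 called higher, where 1.91% of all genes were called. Foxo3, of the FOXO family that activates the Rag genes, averaged 5.40 ± 0.11 in treated and 5.89 ± 0.14 in untreated BCR-negative cells (SD, n = 3), a change of -0.50 (SE 0.09, limma adjusted p = 0.0338). Tcf3, which encodes the E2A proteins of B cell commitment, averaged 8.46 ± 0.29 in treated and 9.02 ± 0.09 in untreated cells, a change of -0.56 (SE 0.10, adjusted p = 0.0365), and fell by 0.58 against BCR-positive cells (adjusted p = 0.0429). These 3 calls were each lost on leaving out any 1 tumour, at adjusted p between 0.123 and 0.39, and also without the tumour block, with only the 2 groups compared and with the title mark, and that of Foxo3 also with an intensity trend. Foxo1, of the same family as Foxo3, differed by -0.69 (SE 0.33, adjusted p = 0.343) and was not called. Its difference between clones and BCR-negative cells was 0.09 (adjusted p = 0.981). In treated cells Ebf1, the early B cell factor, differed by -1.21 (SE 0.28, adjusted p = 0.0677), Spi1 (PU.1) by 0.52 (SE 0.12, adjusted p = 0.0681), Pax5 by -0.46 (adjusted p = 0.0902) and Irf4 by -1.12 (adjusted p = 0.169). In all, 12 of 15 had a negative difference (43.3% of all genes), 9 of them in 3 of 3 tumours (15.8% of all genes). The 12 include Runx1, which was unchanged at -0.0003. At an unadjusted p under 0.05 there were 7 (16.6% of all genes), of which 6 were lower (6.2% of all genes) and 1, Spi1, was higher. The median was -0.46, beside 0.03 over all genes.

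Between BCR-independent clones and BCR-negative cells 0 of the 15 regulators were called by limma (0.00772% of all genes) and 2 had an unadjusted p under 0.05 (5.99% of all genes), with a median of -0.06 that turned without tumour 2676 (0.10) and with the title mark (0.08). The smallest p-values were those of Tcf3 (-0.29, SE 0.10, adjusted p = 0.799), Ebf1 (-0.80, SE 0.28, adjusted p = 0.799) and Foxo3 (-0.13, adjusted p = 0.853, -0.07 without tumour 2676). Tcf3 had a negative difference in each tumour (-0.36, -0.21 and -0.30), as had Ebf1 (-1.14, -0.38 and -0.87).

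**Figure D4:**
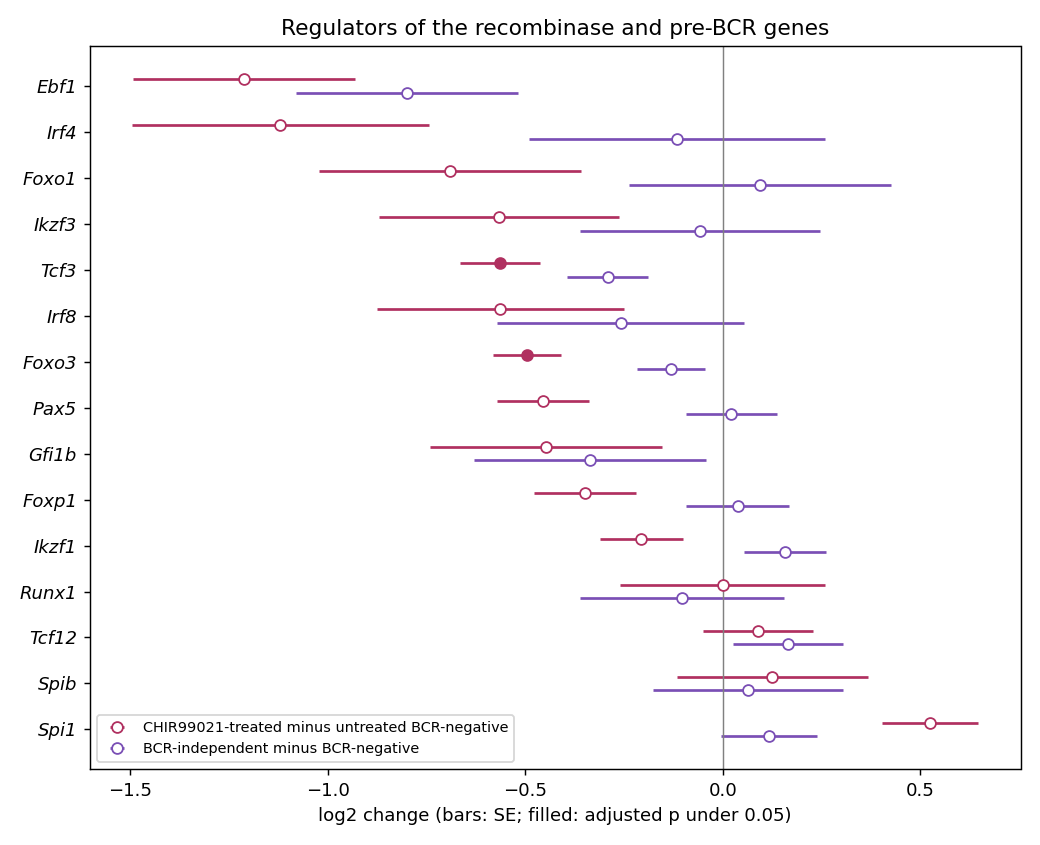
The log2 change (x axis) of the 15 tested regulators is shown for CHIR99021-treated minus untreated BCR-negative cells and for BCR-independent minus BCR-negative cells, with bars of 1 SE and filled points where called. Foxo3 (-0.50) and Tcf3 (-0.56) are the filled points, and 12 of the 15 lie below 0 in the treated comparison.

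Of 13 genes of the recombination and end-joining machinery, 12 were tested and 0 were called by limma in either of those comparisons, with 3 and 2 at an unadjusted p under 0.05 in treated cells and clones (16.6% and 5.99% of all genes). Of the 12, 9 were lower in treated cells (median -0.07, beside 0.03 over all genes) and 4 in the clones (median 0.03, beside 0.02). Over all genes 43.3% were lower in treated cells and 44.7% in the clones. Lig4, the ligase that seals the joins, differed by -1.06 in treated (SE 0.28, adjusted p = 0.101) and -0.75 in clone cells (adjusted p = 0.814), Hmgb2, a DNA-bending cofactor of RAG, by -0.33 (adjusted p = 0.074) and -0.16, and the joining polymerase gene Polm by -0.99 (adjusted p = 0.109) and -0.06. Poll differed by 0.29 in the clones (adjusted p = 0.814). The clone difference of Lig4 was -0.29 without tumour 2567 and -1.20 without tumour 2646, where it was 0.15, and those of Hmgb2, Polm and Poll were -0.10, 0.33 and 0.45 without tumour 2676. Of 14 other pro-B and pre-B cell genes 10 were tested and 0 called, with 3 and 1 at an unadjusted p under 0.05, beside the same 16.6% and 5.99% of all genes. Of the 10, 6 were lower in treated cells (median -0.08) and 7 in the clones (median -0.10), beside the same 43.3% and 44.7%. Vpreb3 differed by -0.74 in treated cells (adjusted p = 0.358) and by -0.91 in the clones (adjusted p = 0.814), Cplx2 by -0.77 (adjusted p = 0.0662), Hhex by 0.86 (adjusted p = 0.129) and Bach2 by -1.34 (adjusted p = 0.228) in treated cells, and Vpreb2 and Bst1 by -0.23 and -0.24 in the clones. Single tumours carried much of these values. Without tumour 2567 the treated differences of Hhex and Bach2 were 0.47 and -0.78 and the clone difference of Vpreb3 was -0.56. Without tumour 2646 the treated difference of Cplx2 was -0.46, and without tumour 2676 the clone differences of Vpreb2 and Bst1 were -0.12 and -0.05.

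Of 12 genes of interleukin-7 receptor signalling 10 were tested and 0 were called by limma in treated cells or clones, with 2 and 2 at an unadjusted p under 0.05, beside 16.6% and 5.99% of all genes. Of the 10, 6 were lower in treated cells (median -0.24) and 6 in the clones (median -0.12), beside 43.3% and 44.7% of all genes. In treated cells Stat5b, which carries the signal to the nucleus, differed by -0.56 (SE 0.18, adjusted p = 0.159), the kinase gene Pim1 by -1.14 (SE 0.41, adjusted p = 0.195) and Jak1 by -0.56 (adjusted p = 0.461). In the clones Crlf2 differed by -0.26 (adjusted p = 0.799), Socs2, a feedback inhibitor of cytokine receptors, by -0.97 (SE 0.39, adjusted p = 0.814) and Stat5b by -0.32 (adjusted p = 0.827). Without tumour 2646 the treated differences of Stat5b and Jak1 were -0.32 and -0.25 and the clone difference of Stat5b was -0.18, and without tumour 2567 the treated difference of Jak1 was -0.87 and the clone differences of Crlf2 and Socs2 were -0.15 and -0.59.

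Some of the 9 genes are also expressed by T cells, myeloid cells or endothelium. Of 6 T cell markers with a probe set 1 exceeded the array median on every array, and their summed signal stayed between 5.67 and 5.74 in treated, 5.53 and 5.67 in BCR-independent, 5.52 and 5.63 in BCR-negative and 5.56 and 5.68 in BCR-positive cells (log2 of the sum). Of 7 myeloid markers 1 or 2 exceeded it, with sums of 6.03 to 6.25, 5.92 to 6.58, 6.09 to 6.77 and 6.02 to 6.74 in the same order of groups. Of 7 stromal and endothelial markers 3 to 5 did, with sums of 6.60 to 7.41, 7.13 to 7.87, 7.08 to 7.83 and 7.05 to 7.65. Of 5 plasma cell markers 2 did, with sums of 7.11 to 7.37, 6.95 to 7.49, 6.91 to 7.47 and 6.65 to 7.57. Of 7 mature B cell markers 2 to 4 did, with sums of 7.07 to 8.09, 7.85 to 8.90, 8.00 to 8.56 and 7.85 to 9.05, and of 7 defining B cell markers, which include Ebf1 and Pax5, 6 did, with sums of 11.21 to 11.74, 11.50 to 12.15, 11.37 to 12.12 and 11.49 to 11.79. In these lists 0 genes were called by limma in any of the 6 comparisons, and their part in the members' differences was not tested.

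After centring each tumour on its own mean, the gene whose values were most like those of Myb over the 12 arrays was Strbp (Pearson r = 0.98), and for Sox4 it was Tlk2 (r = 0.99). For Rag2 it was Pdp1 (r = 0.98), for Il7r Mtf2 (r = 0.95), for Cd93 Trim12a (r = 0.95), and for Igll1 and Vpreb1 alike it was Cdyl2 (r = 0.96 each). Without a tumour the lowest value was 0.71 for Igll1 with Cdyl2 and 0.83 for Vpreb1 with Cdyl2, and 0.84 or more for the others. These are descriptions over arrays that share tumours, chosen as the highest of 12960 genes each.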

How the data were processed

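Total RNA of 12 sorted lymphoma samples was hybridised to 12 Affymetrix mouse whole-transcript arrays. The authors deposited log2 signals, for which the submitters' processing notes name Affymetrix Power Tools and RMA (versions and build not given in the sources used here). RMA corrects background, normalizes between arrays and summarises probes, which compresses differences between dim probe sets. All 35556 probe sets were used as deposited, 21218 of them with 1 gene symbol, and symbols of 21185 were taken by gene ID from RefSeq (GRCm38.p6). Probe sets above the 40th percentile on at least 3 arrays were kept, and the brightest represented a gene. The model of group and tumour was fitted in limma 3.58.1 (R 4.3.3; 6 residual and 3.41 prior degrees of freedom), adjusted over 12961 genes. The same tumour's arrays had residual correlations of 0.28 to 0.79, different tumours in different groups of -0.57 to 0.16, and 12 of 12 arrays correlated best with their own tumour. Each p reflects the spread left after group and tumour over all 12 arrays, pooled over the 4 groups and moderated by that of all genes. It covers only these 3 tumours, with 1 clone for each. Alternatives were no block, other filters, eBayes with trend, array weights, cyclic loess, quantile normalization, 2 groups only, mean probe sets, the title mark, a floor for dim values, and each tumour left out. Members, lists and tests were chosen with earlier results of these data known. Genes named beside the members are the 3 with the smallest p of each list in treated cells and in clones, those called, and for likeness the most correlated gene. Spi1, Pax5, Irf4, Foxo1, Runx1 and Ms4a1 were named after their values were seen.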

Additional observations from a re-analysis of the deposited data

How the results depend on the processing

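Over 14 alternatives, 556 of 588 member values kept their sign and side of the threshold, 14 turned sign, 6 gained a call and 12 lost one, all 12 of them calls of Myb. The count of values kept is not a measure of robustness. No block, other filters, eBayes with trend, 2 groups only and mean probe sets leave the fitted difference of a member as it was. Most values also had no call to lose, since Myb alone was called in the main fit. With array weights the sign turned for Cd93 in BCR-independent against BCR-positive cells (-0.0562) and for Igll1 in treated against BCR-negative cells (-0.0914). It also turned for Sox4 in BCR-negative against BCR-positive cells (-0.0311). With the title mark it turned for Cd93 in BCR-independent against BCR-positive cells (-0.46) and for Vpreb1 in treated against BCR-negative cells (0.28). Leaving out a tumour gave -0.77 to 0.20 for Rag2 and -0.997 to 0.15 for Vpreb1 (BCR-independent against BCR-negative), -0.64 to 0.39 for Cd93 (BCR-independent against BCR-positive), -0.25 to 0.22 for Igll1 (treated against BCR-negative), -0.20 to 0.46 for Sox4 and -0.33 to 0.51 for Cd93 (BCR-negative against BCR-positive), and -0.19 to 0.87 for Vpreb1 and -0.88 to 0.57 for Sox4 (treated against BCR-independent).

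Members called in treated against BCR-negative cells were 1, and 0 without the tumour pairing as a block, 4 with array weights, 2 with only the 2 groups, 0 with the mark and 0 to 0 without a tumour. Against BCR-positive cells they were 1, and 0 without the block, 0 with only the 2 groups, 0 with the mark and 0 to 1 without a tumour. Genes called in treated against BCR-negative cells were 248, and 12 without the block, 1635 with array weights, 109 with only the 2 groups, 32 with the mark and 1 to 17 without a tumour. Against BCR-positive cells they were 104, and 7, 168, 0, 8 and 4 to 19 in that order, with 183 after cyclic loess. Against BCR-independent cells they were 21, and 5, 39, 1, 33 and 0 to 12, with 37 after cyclic loess and 33 after quantile normalization. BCR-independent against BCR-positive cells gave 11, and 4, 3 and 1 without the block, with array weights and with only the 2 groups, and 1 to 4 without a tumour. BCR-independent against BCR-negative cells gave 1, and 0, 0 and 0 without the block, with the mark and with only the 2 groups, and 0 to 3 without a tumour. BCR-negative against BCR-positive cells gave 1, and 0, 2 and 2 in those settings, and 0 to 0 without a tumour. Without a tumour or with only the 2 groups fewer arrays entered. With the mark, the offset of treated cells and clones from untreated cells rested only on the tumour whose titles carry no mark. For the remaining settings the cause was not tested. No detection calls exist in the table, so signals near the 40th percentile have no measured background.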
